A study of Mus musculus with 2 samples.

Results

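The liver makes the membrane lipids phosphatidylcholine (PC) and phosphatidylethanolamine (PE), and 10 enzymes of these routes were examined in apoE-KO mouse liver after normal chow or after the high-Chol diet. They were chosen by name, as every non-control probe on the arrays named Chka, Chkb, Etnk1, Etnk2, Pcyt1a, Pcyt2, Chpt1, Cept1, Pemt or Prei4 (now Gpcpd1), which gave 10 of the 27962 gene names and 25 probes. Because the list was selected on the same arrays, with their diet differences already known, the differences of the 10 enzymes are given as a description, and no p-value is given for them. The other gene lists and markers given below were also chosen with earlier results of these data known. Their p-values and calls are therefore not independent support.

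The mice were male C57BL/6 apoE-KO animals, which lack apolipoprotein E in both diet groups and are a model of hypercholesterolemia. The diets began at 10 weeks of age and lasted 1 week, and they differed in the Chol added to the high-Chol diet (1.25%). Liver RNA from 3 independent experiments per diet was labeled with Cy3 and hybridized to single-colour Agilent Whole Mouse Genome arrays, 1 array per experiment. Apoe itself, disrupted in every sample, read 1.66 to 3.81 on the normal chow arrays and 3.18 to 3.56 on the high-Chol arrays, which gives no comparison with an intact gene. How many livers entered each array, and the hour at which they were taken, are not given in the sources used here.

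In the Kennedy pathway, choline or ethanolamine is first phosphorylated by a kinase (Chka and Chkb mainly for choline, Etnk1 and Etnk2 for ethanolamine). A cytidylyl transferase then activates the phosphobase (Pcyt1a for the choline branch, Pcyt2 for the ethanolamine branch), and a phosphotransferase joins it to diacylglycerol (Chpt1 makes PC, Cept1 makes PC and PE). The liver has in addition Pemt, which methylates PE to PC with S-adenosylmethionine as methyl donor. Prei4 is the older name of Gpcpd1, a phosphodiesterase that cleaves glycerophosphocholine, a breakdown product of PC, and so returns choline.

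The 3 normal chow arrays (NC1, NC2 and NC3) and 1 high-Chol array (HC1) lay on slide 1, and the other high-Chol arrays (HC2 and HC3) on slide 2, which was scanned apart and read with another version of the software. A fit with slide as a block therefore compares HC1 alone with the normal chow arrays. Leaving out HC1 leaves normal chow only on slide 1 and the high-Chol diet only on slide 2. Calls made without HC1 therefore cannot tell diet from slide. The 75th percentile of the spot signals was 271 to 325 in the chow group and 373 on HC1, all on slide 1, and 799 on HC2 and 762 on HC3, on slide 2. All levels are given as log2 signal minus this percentile of the array. All 4 defining hepatocyte genes with a lower mean on the high-Chol diet (Alb, Apoa1, Cps1 and Tat) and the 1 with a higher mean (Ttr) missed the threshold of limma (2 of the 5 were under 0.05 unadjusted, and 3 with the methods' t-test), although Ttr and Apoa1 passed it without HC1 (adjusted p = 0.0365 and 0.016), and another, Serpina1a, was not matched to the arrays. The summed signal of the 5 was 1293 to 1532 times the 75th percentile in the chow group and 982 to 1135 times in the high-Chol group. In whole liver, fewer cells of a type and less RNA per cell cannot be told apart.

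The 60-base probes decide which part of a transcript was read, and those of Prei4, whose 4 probes gave the same direction, and of Etnk2, whose 2 probes did not, are shown here by their first 30 bases, 5′ to 3′. Positions are given in mouse build mm7, as the array annotation lists them, and their exons and untranslated regions were not assigned here. Prei4 was read by 4 probes on the minus strand of chromosome 2, at 132270500 to 132270559, 132270522 to 132270581, 132274951 to 132275010 and 132305460 to 132305519. The first pair overlaps by 38 bases, so these are not separate readings, and the capitals mark the 8 overlapping bases that the shown stretches share.
Prei4, probe 1: TTTAGTGTctcactacctagtaaacataag
Prei4, probe 2: ttagacactttgagtatgcttaTTTAGTGT
Prei4, probe 3: attctgctggggtgatgataccaacgatcc
Prei4, probe 4: gaagtaccgctacttcagaggctgcttttt
Etnk2 was read by 2 probes on the plus strand of chromosome 1 that gave opposite differences, probe 1 at 133281149 to 133281205 and probe 2 at 133275103 to 133275162. The listed span of probe 1 is 57 bases, and its accession is not in the gene table used here.
Etnk2, probe 1: agtccttacaggcctaagggagtctggtat
Etnk2, probe 2: tgtgggtctcggtccctcggatccaatttt

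Prei4 had the lowest difference of the 10 enzymes, and Chka the highest. On the brightest probe of each gene, 8 enzymes had a lower mean on the high-Chol diet and 2 a higher one. In 4 of them (Etnk2, Pcyt2, Pemt and Prei4) all high-Chol arrays lay below all normal chow arrays, and in 0 all lay above. Among all 16430 genes with a value on each array, 14.0% were lower and 11.9% higher without overlap between the diets. limma called 1 of the 10 (Prei4, lower; not with slide as a block, a normexp background, no filter or the methods' t-test, nor without NC2, NC3, HC2 or HC3), where it called 0.227% of 16722 genes lower and 2.69% higher at an adjusted p under 0.05. Without HC1 it called 2 of the 10 (Pemt and Prei4, both lower), where it called 4.56% of all genes lower. The 10 entered that fit along with all other genes, but since these values chose the list, nothing is read from these counts.

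**Figure D1:**
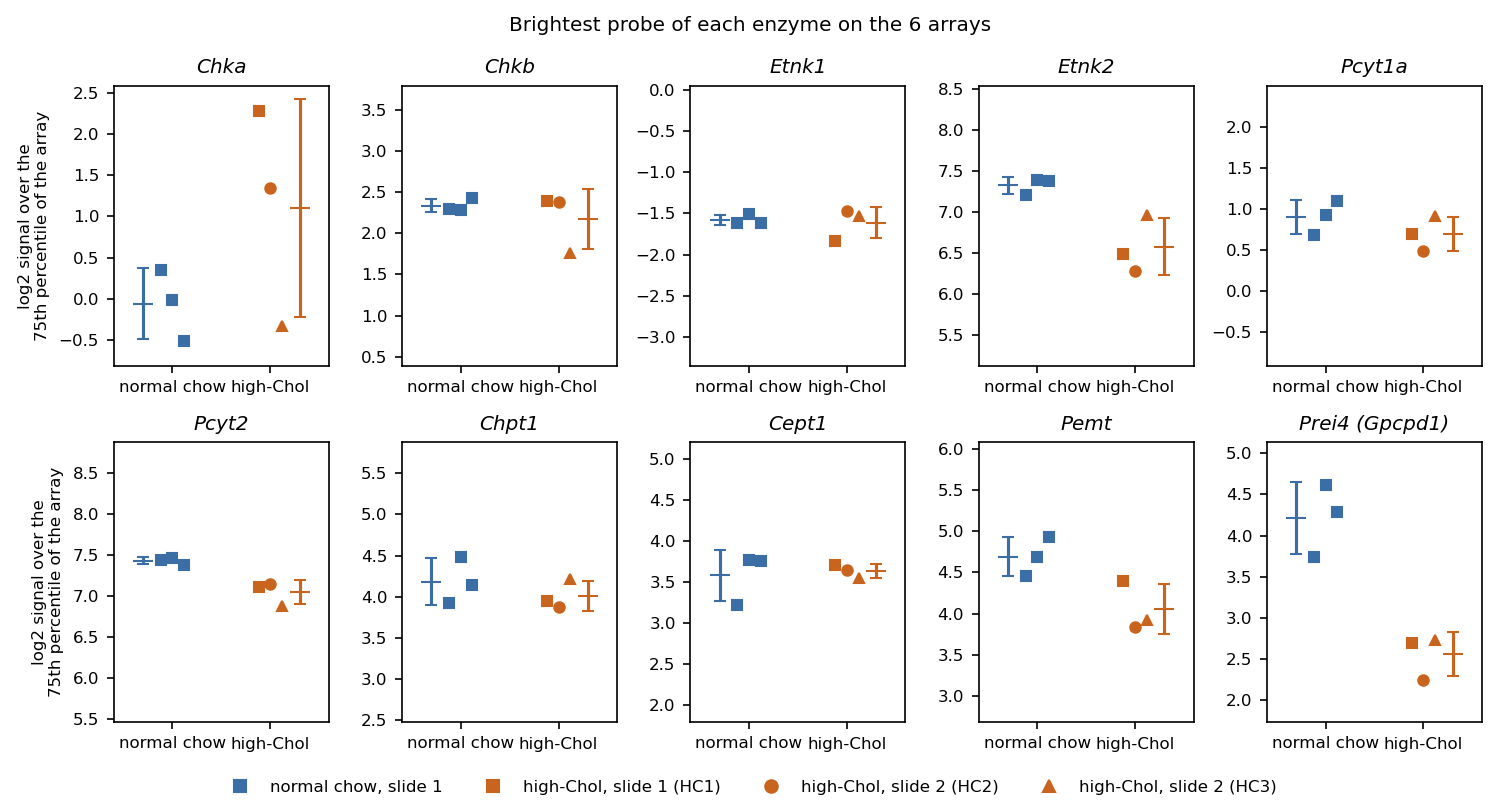
Brightest probe of each of the 10 enzymes, with log2 signal over the 75th percentile of the array on the y axis (each panel spans the same range of log2 units) and diet on the x axis. Points are single arrays, with marker shape giving the slide and array, and bars are the mean ± SD of 3 arrays. Prei4 shows the widest gap between the diets, and in Chka array HC3 lies among the normal chow arrays.

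Among the kinases, Chka was the enzyme that differed most between arrays of the same diet. Its brightest probe read 0.35, -0.02 and -0.51 on the normal chow arrays NC1 to NC3 and 2.28, 1.35 and -0.33 on the high-Chol arrays HC1 to HC3. This probe lies at chr19:3788621-3788680 on the plus strand. Arrays HC1 and HC2 were above every normal chow array, whereas HC3 fell among them. The means were -0.06 ± 0.43 in the chow group and 1.10 ± 1.33 in the high-Chol group (SD, n = 3 each, as for all means here), a log2 difference of 1.16 (standard error 0.62), or 2.24-fold higher. It was 0.57 without HC1 and 1.88 without HC3, and 2.34 with slide as a block.

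The other 3 Chka probes also had HC3 as the lowest high-Chol array. Their log2 differences were 1.19, 1.47 and 1.69, and on each of the 4 probes HC3 overlapped the normal chow arrays. Probe 4 was well above background on only 1 of the 3 normal chow arrays and on all 3 high-Chol arrays. With a normexp background its difference turned to -0.63, where that of the brightest probe was 0.84. Probes 2 and 3 were well above background on all 6 arrays, but their differences fell to 0.27 and 0.15 in that setting.

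Array HC3 also stood apart in some of the clock genes, which cycle over the day in liver. Dbp, a clock output factor, read 6.57, 6.49 and 6.80 in the chow group and 0.86, 0.86 and 5.64 on HC1 to HC3. Arntl, the core activator of the clock, read -1.12, -1.71 and -3.67 in the chow group and 1.19, 1.17 and -1.51 on HC1 to HC3. In Chka, Dbp and Arntl alike, HC1 and HC2 lay outside the normal chow arrays, and HC3 lay nearer to them than either. Of 14 clock genes 13 were tested, 11 had a lower mean on the high-Chol diet and 2 a higher one, and limma called 0 of them (adjusted p from 0.073 to 0.75), with 9 under 0.05 before adjustment and 2 with the methods' t-test. Without HC3, limma called Dbp (adjusted p = 0.000867) and Tef (adjusted p = 0.027), and without HC1 it called Cry2 (adjusted p = 0.026) and Nr1d2 (adjusted p = 0.0429). The part of the clock or of sampling time in the Chka values was not tested.

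**Figure D2:**
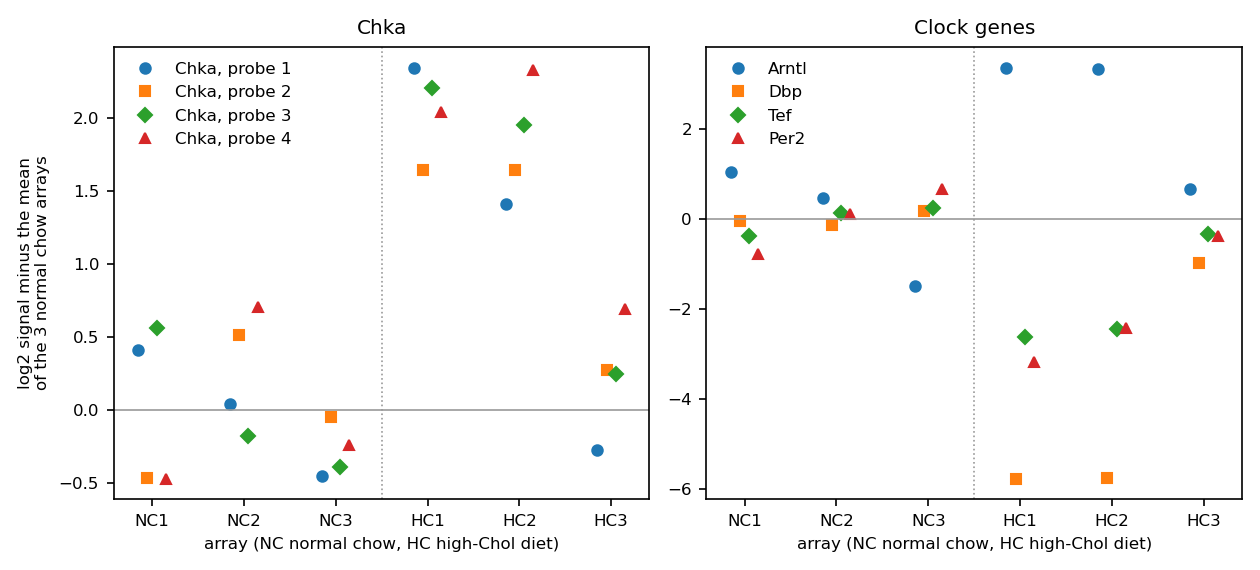
Log2 signal minus the mean of the 3 normal chow arrays (y axis) on each array (x axis), for the 4 probes of Chka on the left and for Arntl, Dbp, Tef and Per2 on the right (the y axes differ in range). Arrays HC1 and HC2 lie far from the normal chow arrays in both panels, and HC3 lies nearer to them. The clock genes shown were chosen for display, and not all others follow this pattern.

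Chkb, the second choline kinase, read 2.30, 2.29 and 2.43 in the chow group and 2.39, 2.38 and 1.76 in the high-Chol group. The probe is listed at chr15:89509515-89509723 on the minus strand, a span of 209 bases for 60 bases of probe. The arrays overlapped, with HC3 the lowest of the 6, and the log2 difference was -0.16 (standard error 0.21). Its other probe gave -0.38, also with overlap. The sign on the brightest probe depended on HC3 and on the processing. The difference was 0.05 without HC3, 0.05 with slide as a block and 0.09 with a normexp background.

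Etnk1, an ethanolamine kinase, read -1.62, -1.51 and -1.62 in the chow group and -1.83, -1.47 and -1.53 in the high-Chol group. These values, from chr6:143297132-143297191 on the plus strand, overlapped, and the log2 difference of -0.03 (standard error 0.16) was smaller than the SD of 0.19 among the high-Chol arrays. With slide as a block it was -0.25. On its second probe all high-Chol arrays (-2.65 to -2.43) lay below the normal chow arrays (-2.36 to -1.61), a difference of -0.43. The last Etnk1 probe was well above background on 1 normal chow and 2 high-Chol arrays, and it alone of the 25 did not pass the filter.

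Etnk2, the ethanolamine kinase isoform known to be enriched in liver, read 7.21, 7.38 and 7.38 in the chow group and 6.50, 6.28 and 6.96 in the high-Chol group. Every high-Chol array was below every normal chow array. The means were 7.32 ± 0.10 and 6.58 ± 0.35, a log2 difference of -0.75 (standard error 0.20), or 1.68-fold lower, and -0.83 with slide as a block. The second probe of the sequences shown above, with an overlap between the diets, read -0.88, -1.41 and -0.27 in the chow group and -0.54, 0.19 and -0.72 in the high-Chol group, a difference of 0.50 (standard error 0.35). The log2 ratio of probe 1 over probe 2 within each array was 7.65 to 8.79 in the chow group and 6.09 to 7.68 in the high-Chol group, which overlapped through HC3. The description of Etnk2 as lower thus holds for probe 1 alone.

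The cytidylyl transferases carry the step taken as rate-limiting in each branch. Pcyt2, in the ethanolamine branch, read 7.44, 7.46 and 7.38 in the chow group and 7.12, 7.14 and 6.88 in the high-Chol group. Its probe lies at chr11:120719128-120719187 on the minus strand. The normal chow arrays were close together (7.43 ± 0.04) and all above the high-Chol arrays (7.04 ± 0.15). The log2 difference was -0.38 (standard error 0.15), or 1.31-fold lower, and -0.31 with slide as a block. The second Pcyt2 probe gave -0.55, again without overlap between the diets, although HC1 (5.45) was nearly level with the lowest normal chow array (5.50). The size of the Pcyt2 difference moved with the processing, from -0.08 with a normexp background to -0.62 with scaling to the array median.

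Pcyt1a, in the choline branch, read 0.68, 0.93 and 1.10 in the chow group and 0.69, 0.49 and 0.91 in the high-Chol group. Its probe lies at chr16:32149104-32149163 on the plus strand in mm7. The arrays overlapped, and the difference of -0.21 (standard error 0.18) was about as large as the SD within each diet (0.21), and it was also -0.21 with slide as a block. On its second probe the high-Chol arrays (-1.47 to -1.11) lay below the normal chow arrays (-1.04 to -0.89), a difference of -0.31.

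Pcyt1a is also the member in whose promoter a searched motif was found, and that promoter is shown for this reason. The 250 bases before its first listed start are taken from RefSeq (GRCm38.p6, plus strand, chr16:32430671-32430920), and capitals mark the letters of the sterol regulatory element TCACNCCAC, which begins 116 bases before the start.
Pcyt1a promoter: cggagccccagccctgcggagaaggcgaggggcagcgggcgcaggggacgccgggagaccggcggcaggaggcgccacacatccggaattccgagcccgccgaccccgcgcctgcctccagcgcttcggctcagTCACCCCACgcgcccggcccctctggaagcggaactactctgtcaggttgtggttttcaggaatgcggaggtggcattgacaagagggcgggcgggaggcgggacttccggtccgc
This motif was in 1.24% of 32851 mouse promoter windows (250 bases before to 50 after the start, either strand). The same search covered the 8 enzymes that the promoter table holds, in 13 windows. The E-box CACGTG (in 7.15% of all windows), the inverted repeat bound by FXR (0.0396%) and the D-box TTATGNAA (3.38%) were found in none of the 13. A match of letters is a description and not a binding site, and its absence concerns only these windows.

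The phosphotransferases differed little. Chpt1 read 3.93, 4.48 and 4.14 in the chow group and 3.95, 3.87 and 4.22 in the high-Chol group, a log2 difference of -0.17 (standard error 0.20) with overlapping arrays, and -0.24 with slide as a block. The Chpt1 probe lies at chr10:88046254-88046313 on the minus strand. Its other probes gave 0.06 and 0.29, so the sign of Chpt1 depended on the probe, and it turned with quantile normalization (0.01) and a normexp background (0.09). Cept1 had a single probe, at chr3:106321871-106321930 on the minus strand, which read 3.23, 3.77 and 3.75 in the chow group and 3.71, 3.65 and 3.55 in the high-Chol group. The Cept1 difference was 0.05 (standard error 0.19) with overlap, 0.12 with slide as a block, -0.18 with scaling to the array median and 0.35 with a normexp background.

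Pemt, the methylation route from PE to PC, read 4.45, 4.69 and 4.93 in the chow group and 4.40, 3.84 and 3.92 in the high-Chol group. Its probe lies at chr11:60052334-60052393 on the minus strand. All high-Chol arrays were below the normal chow arrays, but HC1 missed the lowest of them by little. The means were 4.69 ± 0.24 and 4.05 ± 0.30, a log2 difference of -0.64 (standard error 0.21), or 1.56-fold lower. The second Pemt probe gave -0.63, with HC1 (4.43) above NC1 (4.18). With slide as a block the difference was -0.29, so more of it came from the arrays of slide 2 than from HC1, and slide and diet cannot be told apart for those.

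Prei4 had the lowest difference, and its 4 probes agreed in direction. The brightest probe read 3.74, 4.62 and 4.28 in the chow group and 2.69, 2.25 and 2.74 in the high-Chol group. The gap between the diets (2.74 to 3.74) was wider than the spread within either. The means were 4.22 ± 0.44 and 2.56 ± 0.27, a log2 difference of -1.66 (standard error 0.26), or 3.15-fold lower. Of 16722 genes, 44 had a lower difference than this.

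The probes farther upstream on the minus strand gave -2.01 and -1.96, and the probe that overlaps the brightest gave -1.60. Each of the 4 separated the diets without overlap. The lowest values of probes 3 and 4 were on HC2 (0.06 and -0.07). With slide as a block the brightest probe gave -1.53, with a single array left out -1.89 (NC1) to -1.45 (NC2), and under the scalings tried -1.89 to -1.29.

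**Figure D3:**
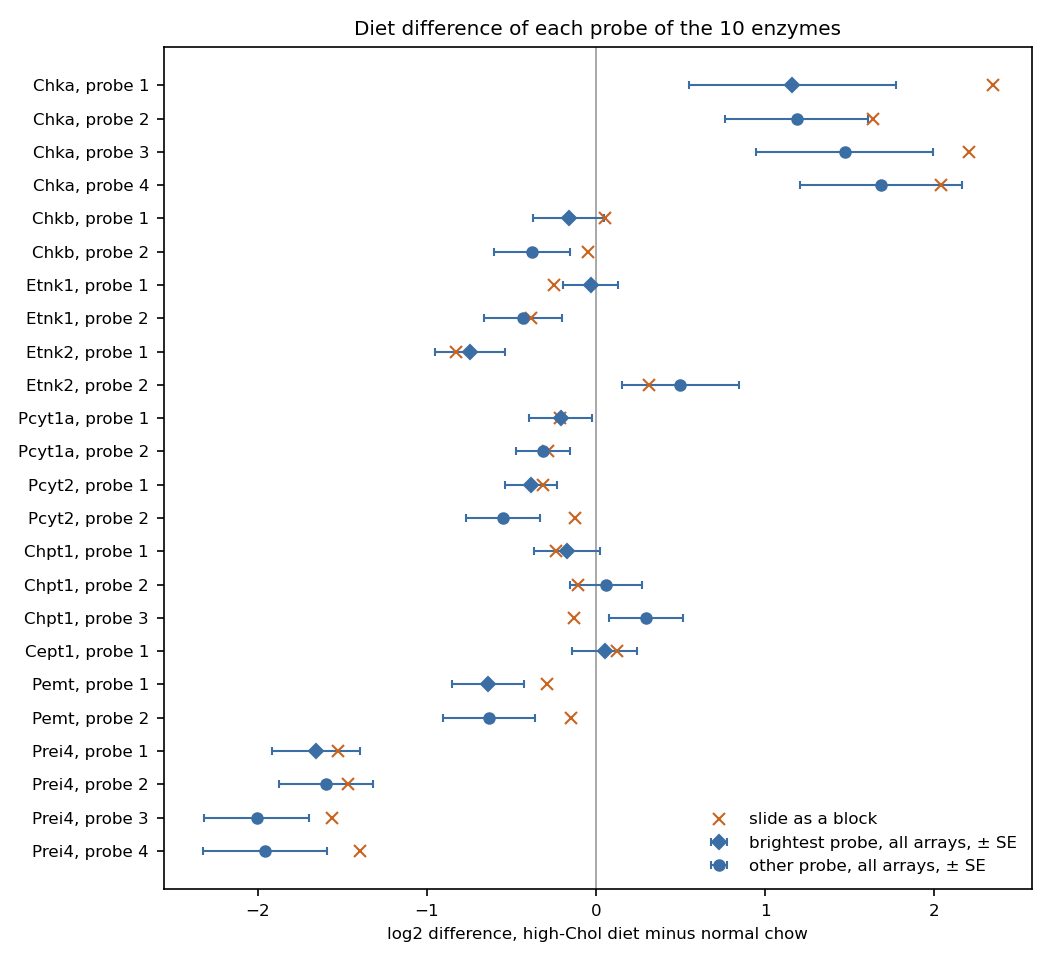
Log2 difference (high-Chol diet minus normal chow, x axis) of the 24 probes that passed the filter, by gene (y axis). Diamonds are the brightest probe of a gene and circles the others, with the standard error from limma over 3 arrays per diet, and crosses are the same probe with slide as a block. The 4 Prei4 probes lie at the left between -2.01 and -1.60, the 4 Chka probes at the right between 1.16 and 1.69, and the Etnk2 probes on either side of 0.

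The median log2 difference of the 10 enzymes was -0.19, beside -0.02 for all 16722 genes. Scaling to the array median took the enzymes to -0.43 and all genes to -0.26. The enzymes lay at -0.17 relative to all genes with either scaling. Both scalings shift all log2 values of an array by the same amount, so this gap could hardly change between them. Its staying the same is therefore no test of the position of the enzymes. The medians became -0.05 (enzymes) and -0.11 (all genes) with a normexp background, 0.06 apart in the other direction. Chka, Etnk2, Pcyt1a, Pcyt2, Pemt and Prei4 kept their sign on the brightest probe under all scalings, with slide as a block and with each array left out. Chkb, Chpt1, Cept1 and Etnk1 did not.

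**Figure D4:**
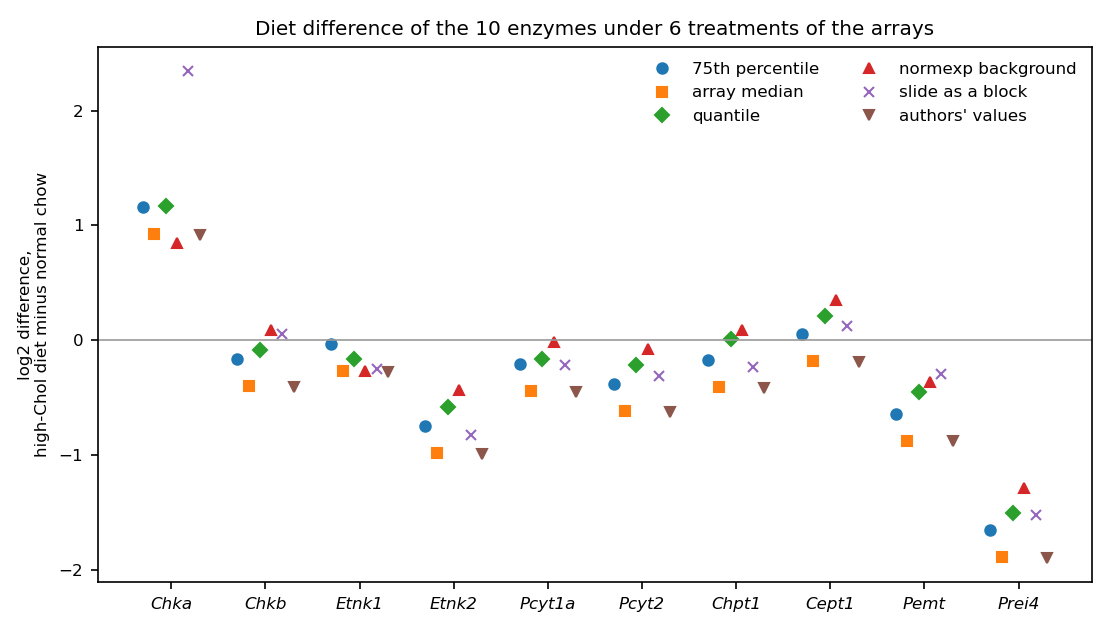
Log2 difference (high-Chol diet minus normal chow, y axis) of the brightest probe of each enzyme (x axis) with the 75th percentile scaling, 3 other treatments of the signal, slide as a block and the values deposited by the authors. Prei4 lies below and Chka above 0 throughout, whereas the points of Chkb, Chpt1 and Cept1 lie on both sides of 0.

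Genes that work next to the 10 enzymes but are not among them were examined in 4 lists of 61 genes, of which 60 were matched to the arrays and 55 tested. Over the 55, 24 had a higher and 31 a lower mean on the high-Chol diet, with a median difference of -0.05 (0.02 with slide as a block), and limma called 2 higher and 0 lower, where it called 2.92% of all genes. Before adjustment, 11 of the 55 were under 0.05 with limma (21.2% of all genes) and 13 with the methods' t-test (16.7% of all genes). These 2 called genes are Lpcat1 and Gdpd1.

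Lpcat1 (Aytl2 on the arrays) reacylates lysophosphatidylcholine to PC. It read -3.53, -3.59 and -3.49 in the chow group and -2.42, -2.42 and -2.35 in the high-Chol group, a log2 difference of 1.14 (adjusted p = 0.00983 with limma, standard error 0.13). Only 2 of 3 normal chow arrays were well above background, so the probe passed the filter through the high-Chol group alone, which favours a higher value there, and the filter for all 6 arrays drops Lpcat1. A normexp background turned the sign (-0.16), and the fit with slide as a block gave 1.11 (adjusted p = 0.105 from limma). Gdpd1, a glycerophosphodiester phosphodiesterase that acts on lysophospholipids, read -1.919, -1.997 and -2.001 in the chow group and -1.07, -0.62 and -0.37 in the high-Chol group. It rose by 1.29 (adjusted p = 0.0253 with limma, standard error 0.20). The rise was 0.90 with slide as a block, where Gdpd1 was not called, and only 0.39 with a normexp background. Gdpd1 lost its call when any single array other than HC1 was left out (adjusted p from 0.0699 to 0.124 with limma), and Lpcat1 lost its call without NC2 (0.068) or HC2 (0.0551). Over all limma alternatives the adjusted p ran from 0.00495 to 1.0 for Lpcat1 and from 0.00363 to 1.0 for Gdpd1, lowest without HC1.

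In the list of choline supply, oxidation and phosphodiesters, 5 of 15 tested genes had a higher mean and 10 a lower one, with a median of -0.21 that turned to 0.06 with slide as a block. Besides Gdpd1, Gdpd5, a phosphodiesterase that like Gpcpd1 cleaves glycerophosphocholine, differed by 1.01 (adjusted p = 0.142) and Slc44a3, a choline transporter-like protein, by -0.85 (adjusted p = 0.113). In the methyl donor cycle, which supplies Pemt, 5 of 13 were higher and 8 lower, with a median of -0.06 (-0.08 with slide as a block), and limma called 0 (3 under 0.05 before adjustment, and 3 with the methods' t-test). Nnmt, which methylates nicotinamide, differed by -0.71 (adjusted p = 0.263), and Ahcy, which hydrolyses S-adenosylhomocysteine, by -0.55 (adjusted p = 0.214). In Nnmt as in Chka, HC3 was nearest to the normal chow arrays (7.21 to 7.24), and HC1 and HC2 (6.31 and 5.94) apart from them.

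Among the other PE and phosphatidylserine (PS) enzymes, 4 of 6 tested genes were higher and 2 lower, with a median of 0.15 (0.06 with slide as a block), and limma called 0 (also 0 under 0.05 before adjustment, and 0 with the methods' t-test). Selenoi, which makes PE in the last step of the ethanolamine branch beside Cept1, differed by 0.32 (adjusted p = 0.313), Ptdss1, which makes PS from PC, by -0.46 (adjusted p = 0.241) and Phospho1, a phosphatase of the phosphobases, by 0.43 (adjusted p = 0.276). In the list of PC remodelling, transfer, use and export, 10 of 21 were higher and 11 lower, with a median of -0.03 that turned to 0.13 with slide as a block. Besides Lpcat1, Lpcat2 differed by 0.66 (adjusted p = 0.302), Lcat, the plasma enzyme that esterifies Chol with a fatty acid of PC, by -0.62 (adjusted p = 0.233) and Pld1, which cleaves PC, by 0.58 (adjusted p = 0.183). With slide as a block, Lcat was at -0.07, Lpcat2 at 0.21 and Pld1 at 0.75. The block values were 0.40 for Gdpd5, -0.45 for Slc44a3, -0.20 for Ahcy, -0.91 for Nnmt, 0.26 for Selenoi, -0.18 for Ptdss1 and 0.01 for Phospho1. A normexp background turned the sign of Gdpd5 (-0.13) and of Phospho1 (-0.28), as it did for Lpcat1, and the other genes named here kept theirs. Of the genes named here beside Lpcat1 and Gdpd1, none passed the threshold over all 6 arrays. Without HC1, where diet and slide cannot be told apart, limma called Gdpd5, Slc44a3, Lcat, Phospho1 and Ahcy (adjusted p from 0.0119 to 0.0451).

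**Figure D5:**
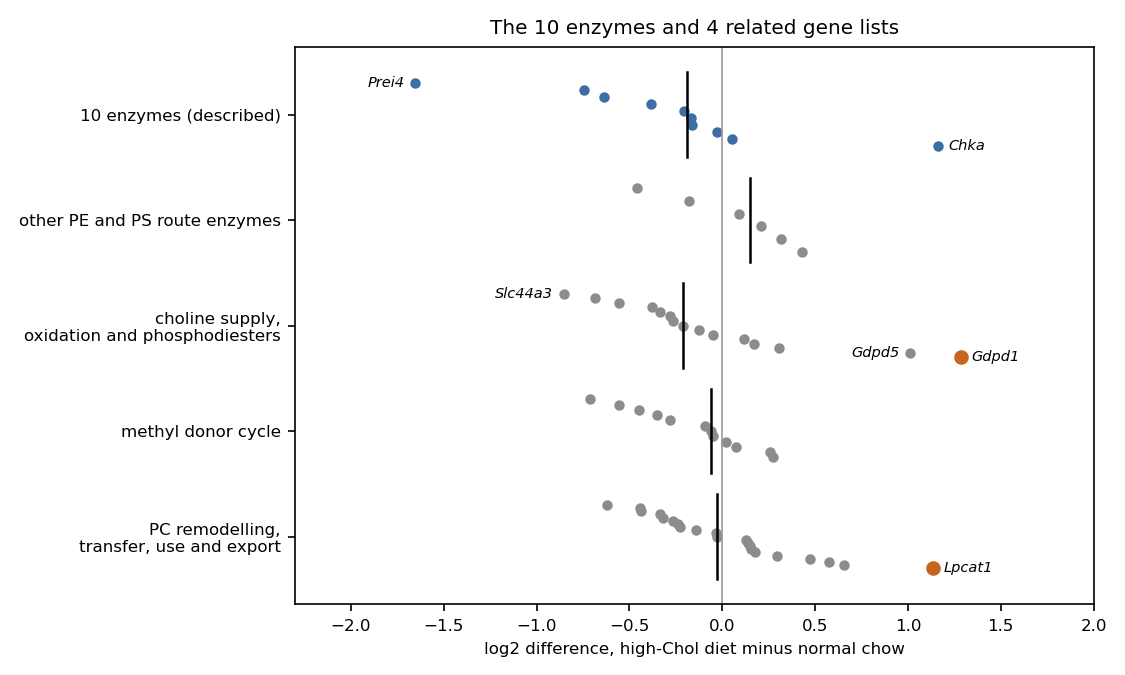
Log2 difference (high-Chol diet minus normal chow, x axis) of each of the 10 enzymes and of the tested genes of the 4 related lists (y axis) apart from 1 gene not reported here, 1 point a gene, with the median of all tested genes of a list as a black line. Orange points are the genes called by limma (Gdpd1 and Lpcat1), the 10 enzymes are shown as a description without calls, and their median is -0.19.

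Markers of macrophages moved with the diet beside these values. All 7 tested of 8 had a higher mean on the high-Chol diet, and limma called 4 (Cd68, Lyz2, Ptprc and Mpeg1), with a difference of 1.74 for Cd68. The block fit gave 1.66 for Cd68 and left none of the 4 called (adjusted p from 0.0829 to 0.258 with limma). Without HC1, Cd14 was called as well (adjusted p = 0.037 with limma, against 0.0806 with all 6 arrays). Cd68 stayed called with any single array left out, Lyz2 lost its call without HC2, HC3, NC2 or NC3 (0.0558 to 0.0827), and Ptprc and Mpeg1 lost it without any array other than HC1 (0.0569 to 0.121). The summed signal of the 6 with a value on every array was 73.3 to 92.9 times the 75th percentile in the chow group and 189 to 288 times in the high-Chol group, and none of the 7 was at background on any array with a value. The stellate marker Col1a1 was called higher by limma, by 1.04, but not without HC2, HC3, NC2 or NC3 (adjusted p from 0.085 to 0.127). With slide as a block it was not called, and its difference was 1.16. The summed signals of the stellate markers (5.07 to 7.33 against 5.80 to 8.18) and cholangiocyte markers (1.10 to 1.24 against 0.855 to 1.13) overlapped between the diets. Endothelial markers did not (7.43 to 9.37 against 9.55 to 10.3), and limma called 0 of their 4 genes (1 under 0.05 before adjustment, and 1 with the methods' t-test), but Cdh5 without HC1 (adjusted p = 0.0156). Erythroid genes (47.3 to 95.6 against 76.0 to 122) overlapped. The part of the cell mixture in the values of the 10 enzymes was not tested.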

How the data were processed

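Liver RNA of apoE-KO mice on normal chow or the high-Chol diet was measured on 6 arrays, 3 per diet. The authors deposited the scanner output, with spot intensity values background-subtracted by Agilent feature extraction software (9.5 for slide 1 and 9.1 for slide 2, where the submitters' processing notes name 9.1) and not normalized between arrays. They also deposited a table of 23458 probes with a log2 value for each diet, normalized and filtered in Gene Spring GX; the normalization and the column scale are not given in the sources used here. The columns have medians of -0.0019 and -0.273, and their diet differences have a slope of 1.00 and an offset of -0.24 on those computed here (r = 0.994 across probes, which are not independent replicates).

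Control spots and outlier spots (75 to 196 per array) were left out. Processed signals were scaled to the 75th percentile of each array. A probe passed if its signal was well above background throughout at least 1 diet group. Each gene was represented by its brightest passing probe, for 16722 genes in all. limma 3.58.1 (R 4.3.3, lmFit with eBayes and no covariate) tested the diet difference, with Benjamini-Hochberg adjustment over all genes and a threshold of 0.05. Before use, this step was tested on simulated data. Tables were made with pandas 2.3.3 and figures with matplotlib 3.10.9.

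The 10 enzymes, the related lists, the markers and the motifs were chosen with earlier results of these data known. Named genes were the 10 enzymes with every probe and, in each related list, the called genes and (where fewer than 3 were called) the 3 largest sizes of difference among genes well above background on all 6 arrays. A single gene that this rule names is not reported here. Older array names were matched through the accessions of the gene table. The number of arrays limits the precision.

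Alternative settings were a normexp background (offset 50), array-median scaling, quantile normalization, other filters on dim probes (none, or well above background on all 6 arrays), the mean of a gene's probes, each probe separately, a slide block, leaving out each array, the methods' t-test and the values deposited by the authors. The other measurements of the study were not analysed here.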

Additional observations from a re-analysis of the deposited data

How the results depend on the processing

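The median difference of the 10 enzymes (-0.19) ranged from -0.43 with the authors' values and with scaling to the array median to -0.05 with a normexp background, and from -0.31 to -0.15 with each array left out. The number of genes called by limma (450 higher and 38 lower) was 0 and 0 with a normexp background (before adjustment, 267 and 39 were under 0.05), 26 and 0 when dim probes were not filtered, 11 and 0 with slide as a block, and 4 and 1 with the methods' t-test after adjustment. Scaling to the array median gave 73 lower. Each array left out gave 42 (without NC2) to 2313 (without HC1) higher and 0 (without NC2) to 761 (without HC1) lower. Without HC1, diet and slide cannot be told apart. In the related lists the 2 calls became 0 with a normexp background, without the filter and with slide as a block, 1 with scaling to the array median, with the filter for all 6 arrays and with the methods' t-test, and 0 (without NC2 or HC2) to 8 (without HC1) with each array left out. The cause was not tested. Prei4 kept its sign in all 17 alternatives. No paired analysis was possible because the arrays carry no replicate numbers that link the diets. Probes not well above background, such as probe 4 of Chka, limit what can be said of low signals.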
